A study of Mus musculus with 8 samples.

Results

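Hepatic stellate cells were followed through 10 of their genes in whole livers of ethanol-fed mice that had received AAV-H19 or AAV-Null. The genes were picked by GENCODE M21 symbol from a table of 55450 genes, and all 10 were found there and passed the filter on low counts. Lrat, Reln, Hgf, Ecm1, Dcn and Des, 6 genes, mark the identity or the quiescent state of these cells, and Pdgfrb, Acta2, Timp1 and Tgfb1, 4 genes, go with their activation. AAV is an adeno-associated virus, a vector that carries a gene into liver cells, and H19 is a long non-coding RNA from an imprinted locus, plentiful in the fetal liver and scarce after birth. The AAV-H19 group holds livers 25, 26, 27 and 28, and the AAV-Null group holds livers 21, 22, 23 and 24. Every mouse received a virus and ethanol, so no value here compares ethanol with another diet or a virus with none. The labels name no strain, sex, age, virus dose, promoter or time, they do not say which cells took up the virus, and they give each liver a number of its own. The p-values therefore measure the spread between these livers.

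Stellate cells lie in the space between hepatocytes and the sinusoidal endothelium. At rest they store vitamin A as retinyl esters in lipid droplets, and LRAT is the enzyme that makes those esters. In injured liver, alcohol injury included, they can turn into contractile, matrix-making myofibroblasts under platelet-derived growth factor (PDGF) and transforming growth factor beta (TGF-beta); these cells make alpha smooth muscle actin, collagens and TIMP1, an inhibitor of the enzymes that break the matrix down.

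The table holds estimated counts, and the libraries summed to 63.7 M to 78.8 M units for AAV-H19 and 78.3 M to 82.99 M for AAV-Null. H19 itself stood at 104 to 155 CPM (counts-per-million values, scaled between libraries by TMM) in AAV-H19 livers and at 0.142 to 1.41 CPM in AAV-Null livers, so the libraries matched their labels. Each gene's log2 CPM in a library, minus its mean over the 8 libraries, was set against transcript length across 13538 protein-coding genes. Spearman's rho was positive for AAV-H19 (0.218 to 0.449) and negative for AAV-Null (-0.413 to -0.122). Because the levels were centred on that mean, the signs are relative between the libraries. The relation to transcript length thus differed between the groups, and a technical and a biological source of it cannot be told apart here. Each fitted fold change was also computed with an offset for transcript length. Levels, sums, ratios between libraries and coefficients of variation carry no such offset. AAV-Null 22 stood apart from the other AAV-Null libraries, with a Pearson's r across genes of 0.928 to 0.932 against them, where their own pairs reached 0.944 to 0.968. Stellate cell RNA was detected in every liver, with Lrat at 17.3 CPM or more. None of 32 further stellate cell markers was at 0 in all 8 libraries, which does not show each of them in every liver. RNA came from whole liver, so fewer stellate cells and less RNA per stellate cell cannot be told apart in any value given here.

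The comparison asks whether stellate cell genes differ in ethanol-fed liver when H19 is delivered. Hgf rose in AAV-H19 livers, and none of the other 9 genes passed the test in either direction (quasi-likelihood test of edgeR, adjusted by Benjamini-Hochberg over 16672 genes, threshold 0.05). An unadjusted p under 0.05 was reached by 4 of the 10 genes, and by 4968 of all 16672 tested genes. DESeq2 and limma-voom also called Hgf alone. That is 1 of 10 genes, against 11.7% of all tested genes, of which 5.60% were higher and 6.07% lower. The median log2 fold change of the 10 genes was 0.16, with 0.21 for the identity and quiescence genes and 0.16 for the activation genes, beside -0.02 for all tested genes. Without AAV-Null 22 those 3 medians were -0.16, 0.11 and -0.16, and no member passed. With the length offset they were 0.053, -0.11 and 0.19, beside -0.053 for all tested genes, and again no member passed. Of all 16672 tested genes, that fit called 235 higher and 134 lower, against 934 and 1012 in the main fit. Groups did not overlap for Reln and Hgf, or 2 of 10 genes, against 23.7% of all tested genes. Both were higher in AAV-H19, a direction that 12.1% of all tested genes share.

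**Figure D1:**
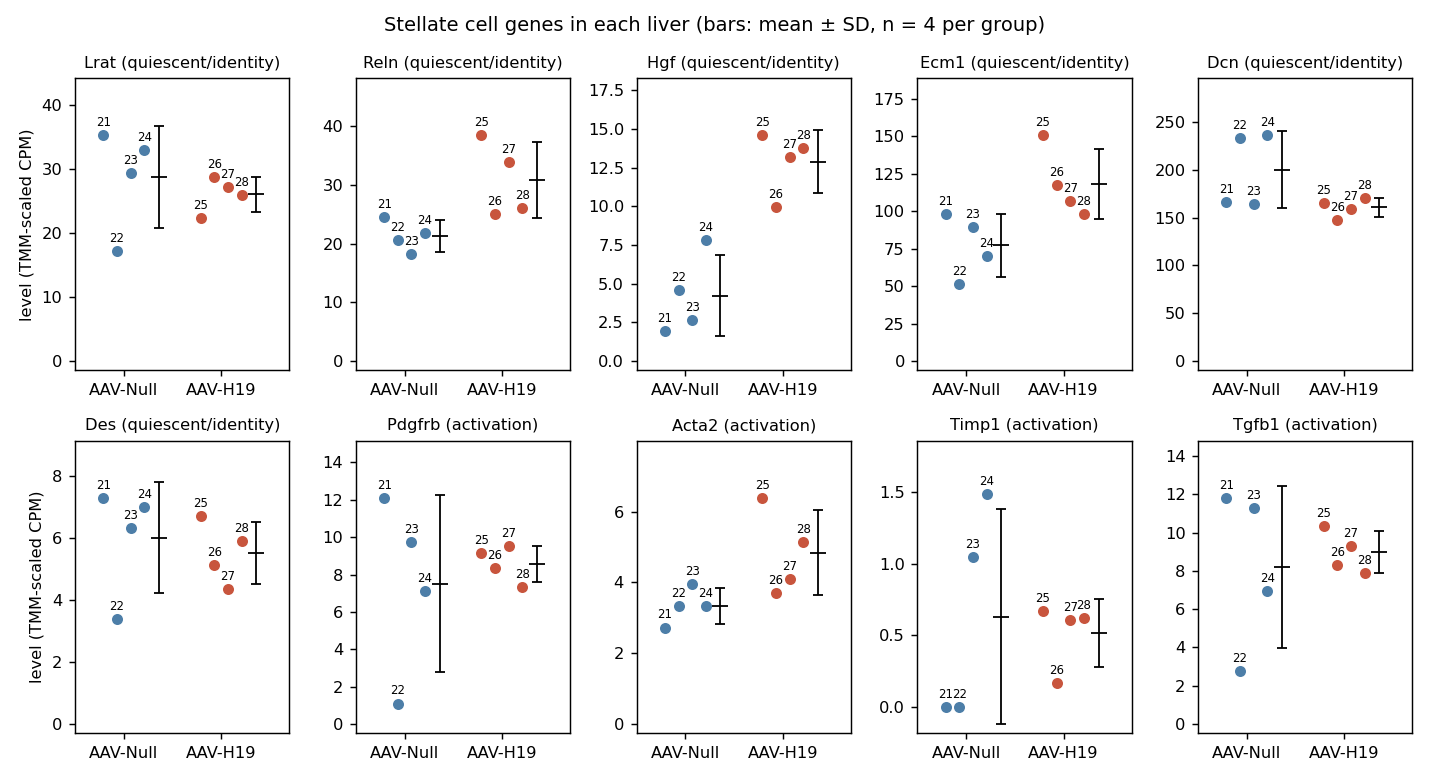
Level of each of the 10 stellate cell genes in TMM-scaled CPM (vertical axes from 0 up, each with its own scale; the Timp1 axis reaches below 0 to show its SD) in the 4 AAV-Null livers (21 to 24) and the 4 AAV-H19 livers (25 to 28), with the mean and SD of each group as a bar. Hgf and Reln show no overlap between the groups, and AAV-Null 22 is the lowest AAV-Null liver for Lrat, Ecm1, Des, Pdgfrb and Tgfb1.

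Hgf encodes hepatocyte growth factor, a mitogen for hepatocytes that in liver comes from stellate and other non-parenchymal cells and acts through the receptor MET. The gene (ENSMUSG00000028864) is protein-coding and lies on the plus strand of chromosome 5, from 16553495 to 16620152 in GRCm38. Its promoter is shown because Hgf was the only member that passed the test. The 250 bases before its first start (RefSeq, GRCm38.p6, chr5:16553245-16553494, plus strand) hold none of the motifs searched on both strands. These were the TATA box TATAAA, the MCAT element CATTCC of muscle genes, the AP-1 site TGANTCA and the SMAD palindrome GTCTAGAC (in 0.167% of such windows). The CArG box was searched in its exact form, CC and GG with 6 bases between them that are each A or T. A second RefSeq window of Hgf, chr5:16553651-16553900, also holds none of them and is not shown.
Hgf: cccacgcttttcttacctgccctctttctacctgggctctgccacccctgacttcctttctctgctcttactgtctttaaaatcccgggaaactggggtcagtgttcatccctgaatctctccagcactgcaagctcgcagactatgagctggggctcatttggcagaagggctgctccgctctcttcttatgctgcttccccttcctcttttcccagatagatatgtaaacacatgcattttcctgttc
In AAV-Null livers 21 to 24 Hgf was at 1.93, 4.57, 2.65 and 7.82 CPM, and in AAV-H19 livers 25 to 28 at 14.6, 9.96, 13.2 and 13.8 CPM. Every AAV-H19 liver was above every AAV-Null liver, and AAV-Null 24 came closest to the AAV-H19 range. The group means were 4.24 ± 2.63 and 12.9 ± 2.03 CPM (SD, n = 4 each), a ratio of 3.04. On the log2 scale Hgf rose by 1.603 ± 0.40 (SE, adjusted p = 0.0344 by the edgeR test). A gene whose exons overlap it on the same strand, Gm43489, had at most 32 units, and with both summed the log2 fold change was 1.54 (edgeR adjusted p = 0.0332). The Hgf values rest on 167 to 622 units in AAV-Null and 651 to 1091 units in AAV-H19. When a library was left out, the log2 fold change ranged from 1.35 to 2.08 and passed in 2 of 8 fits, those without AAV-Null 21 or AAV-Null 24. Without AAV-Null 22 the edgeR adjusted p was 0.0523, without AAV-Null 23 it was 0.0593, and without AAV-H19 25, 26, 27 or 28 it was 0.0973, 0.0690, 0.103 or 0.0709. Over all tested genes, 934 were higher in the main fit and 128, 206, 86 or 373 without AAV-H19 25, 26, 27 or 28. Without AAV-Null 22 or 23, 1023 or 791 were higher. With the length offset the log2 fold change of Hgf was 1.49 ± 0.41 (edgeR adjusted p = 0.0814).

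Lrat, the gene of the retinyl ester enzyme (ENSMUSG00000028003, chromosome 3, minus strand, 82892579 to 82903973), is the most specific of the markers of stellate cells in liver. It was at 35.4, 17.3, 29.5 and 33.1 CPM in AAV-Null livers 21 to 24 and at 22.3, 28.8, 27.3 and 25.97 CPM in AAV-H19 livers 25 to 28. AAV-Null 22 was the lowest of all 8 livers, and the other 3 AAV-Null livers were above all 4 AAV-H19 livers. The means were 28.8 ± 8.05 CPM across AAV-Null and 26.1 ± 2.76 CPM in AAV-H19 (SD, n = 4 each). The log2 fold change was -0.14 ± 0.22 (SE, edgeR adjusted p = 0.708), and without AAV-Null 22 it was -0.33 ± 0.14 (edgeR adjusted p = 0.175). The length offset put it at -0.49 ± 0.20 (edgeR adjusted p = 0.182).

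Reln encodes reelin, a large secreted glycoprotein best known from the layering of the brain cortex, which in liver is made by stellate cells (ENSMUSG00000042453, chromosome 5, minus strand, 21884454 to 22344702). Its level was 24.6, 20.6, 18.2 and 21.9 CPM in AAV-Null livers 21 to 24 and 38.5, 24.99, 33.9 and 26.1 CPM in AAV-H19 livers 25 to 28. All AAV-H19 livers were above all AAV-Null livers, with AAV-H19 26 only just above AAV-Null 21. The means were 21.3 ± 2.67 and 30.9 ± 6.46 CPM (SD, n = 4 each), and the log2 fold change was 0.54 ± 0.19 (SE, edgeR adjusted p = 0.0886). Its transcript, at 11699 nt, is the longest of the 10 genes, and with the length offset the log2 fold change was -0.081 ± 0.19 (edgeR adjusted p = 0.842), so the direction turned.

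Ecm1 encodes extracellular matrix protein 1, a secreted glycoprotein that keeps latent TGF-beta from being activated and that hepatocytes make as well as stellate cells (ENSMUSG00000028108, chromosome 3, minus strand, 95734147 to 95739569). Its promoter is shown because both of its matches lie close to its start. The capitals in the 250 bases before its start (RefSeq, GRCm38.p6, chr3:95739570-95739819, minus strand) mark an AP-1 site at -64 to -58 and the TATA box at -27 to -22.
Ecm1: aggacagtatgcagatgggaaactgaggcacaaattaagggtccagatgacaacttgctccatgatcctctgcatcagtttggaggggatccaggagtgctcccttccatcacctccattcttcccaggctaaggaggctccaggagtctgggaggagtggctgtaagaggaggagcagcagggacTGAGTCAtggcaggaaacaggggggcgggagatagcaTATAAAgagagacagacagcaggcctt
Of 32851 RefSeq promoter windows of the same length, 6.75% hold TGANTCA and 12.4% hold TATAAA; a match is a description of the letters and was not tested as a binding site. Ecm1 was at 98.1, 51.3, 89.4 and 70.0 CPM in AAV-Null livers 21 to 24 and at 151, 117, 107 and 97.8 CPM in AAV-H19 livers 25 to 28. The groups touched only through AAV-Null 21 and AAV-H19 28, whose values were nearly equal. The log2 fold change was 0.61 ± 0.23 (SE, n = 4 each, edgeR adjusted p = 0.107), from a mean of 77.2 ± 20.9 to 118 ± 23.1 CPM (SD). With an offset for transcript GC content it was 0.66 ± 0.17 and passed (edgeR adjusted p = 0.0355), whereas without AAV-Null 22 it was 0.46 ± 0.19 (edgeR adjusted p = 0.137). Under the length offset it was larger than in the main fit, at 0.79 ± 0.24, and did not pass (edgeR adjusted p = 0.0971).

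Dcn encodes decorin, a small leucine-rich proteoglycan that binds collagen fibrils and TGF-beta and is made by stellate cells and portal fibroblasts (ENSMUSG00000019929, chromosome 10, plus strand, 97479609 to 97518143). It was at 166, 233, 164 and 236 CPM in AAV-Null livers 21 to 24 and at 165, 148, 159 and 171 CPM in AAV-H19 livers 25 to 28. AAV-Null 22 and 24 were high, and AAV-Null 21 and 23 lay within the AAV-H19 range. Its log2 fold change was -0.32 ± 0.18 (SE, n = 4 each, edgeR adjusted p = 0.259), and with the length offset it was -0.63 ± 0.22 (edgeR adjusted p = 0.139). Des encodes desmin, the muscle-type intermediate filament that marks stellate cells in rodents and also smooth muscle (ENSMUSG00000026208, chromosome 1, plus strand, 75360329 to 75368579). It was at 7.29, 3.38, 6.33 and 7.002 CPM in AAV-Null livers 21 to 24 and at 6.69, 5.11, 4.35 and 5.89 CPM in AAV-H19 livers 25 to 28. AAV-Null 22 was again the lowest, and the ranges overlapped, with a log2 fold change of -0.12 ± 0.27 (SE, n = 4 each, edgeR adjusted p = 0.793). Without AAV-Null 22 it was -0.32 ± 0.19 (edgeR adjusted p = 0.319).

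None of the 4 activation genes passed the edgeR test, and DESeq2 and limma-voom called none of them. For 1, Acta2, the unadjusted p was under 0.05, as it was for 4968 of all 16672 tested genes. The groups overlapped in each of the 4 activation genes. Acta2 encodes alpha smooth muscle actin, the contractile fibre protein by which myofibroblasts are usually stained, and vascular smooth muscle makes it too (ENSMUSG00000035783, chromosome 19, minus strand, 34241090 to 34255590). Its promoter is shown because Acta2 is the reference gene of activation. The capitals in the 250 bases before its start (RefSeq, GRCm38.p6, chr19:34255374-34255623, minus strand) mark the reverse complement of the MCAT element CATTCC at -146 to -141, a motif in 12.6% of all such windows. An exact CArG box, which 1.47% of windows hold, is not in this window. The window does hold ccctatatgg and ccttgtttgg, which each differ from the exact form by 1 base. Such near matches were not searched for, so no share of windows is given for them. The RefSeq start used here lies inside the GENCODE span of the gene, so the window overlaps that span.
Acta2: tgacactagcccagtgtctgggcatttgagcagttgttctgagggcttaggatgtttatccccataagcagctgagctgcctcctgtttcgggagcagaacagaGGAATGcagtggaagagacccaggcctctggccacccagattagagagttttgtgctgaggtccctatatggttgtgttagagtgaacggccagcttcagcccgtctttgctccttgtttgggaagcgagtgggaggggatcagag
Acta2 was at 2.72, 3.33, 3.96 and 3.34 CPM in AAV-Null livers 21 to 24 and at 6.39, 3.70, 4.10 and 5.15 CPM in AAV-H19 livers 25 to 28. AAV-H19 25 was the highest, and AAV-H19 26 lay below AAV-Null 23. The means were 3.34 ± 0.505 and 4.84 ± 1.20 CPM (SD, n = 4 each), with a log2 fold change of 0.53 ± 0.24 (SE, edgeR adjusted p = 0.166, unadjusted p = 0.0494). Over the 8 fits that each left out a library its log2 fold change was 0.37 to 0.65, and no fit passed. Under the length offset its log2 fold change was 0.68 ± 0.23 (edgeR adjusted p = 0.132).

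Pdgfrb encodes the PDGF receptor beta, through which PDGF drives stellate cells to divide and migrate (ENSMUSG00000024620, chromosome 18, plus strand, 61045150 to 61085061). It was at 12.1, 1.09, 9.72 and 7.11 CPM in AAV-Null livers 21 to 24 and at 9.13, 8.33, 9.53 and 7.34 CPM in AAV-H19 livers 25 to 28. AAV-Null 22 was at 0.113 of the mean of the other 3 AAV-Null livers, and the AAV-H19 livers lay inside the AAV-Null range. The log2 fold change was 0.19 ± 0.53 (SE, n = 4 each, edgeR adjusted p = 0.843), and without AAV-Null 22 it was -0.17 ± 0.21 (edgeR adjusted p = 0.641). The length offset put it at -0.11 ± 0.48 (edgeR adjusted p = 0.919), so the direction turned in both fits. Tgfb1 encodes TGF-beta 1, the main inducer of collagen genes in these cells, which macrophages and endothelium also make (ENSMUSG00000002603, chromosome 7, plus strand, 25687002 to 25705077). It was at 11.8, 2.76, 11.3 and 6.95 CPM in AAV-Null livers 21 to 24 and at 10.4, 8.30, 9.32 and 7.91 CPM in AAV-H19 livers 25 to 28. As for Pdgfrb, AAV-Null 22 was lowest and the AAV-H19 livers lay inside the AAV-Null range. The log2 fold change was 0.13 ± 0.38 (SE, n = 4 each, edgeR adjusted p = 0.853), and without AAV-Null 22 it was -0.16 ± 0.21 (edgeR adjusted p = 0.676).

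Timp1 encodes the tissue inhibitor of metalloproteinases 1, which is low in normal liver and rises in fibrosis (ENSMUSG00000001131, chromosome X, plus strand, 20870166 to 20874735). It was the lowest of the 10 genes, with 0, 0, 93 and 118 units in AAV-Null livers 21 to 24 and 50, 11, 41 and 43 units in AAV-H19 livers 25 to 28. These are 0, 0, 1.04 and 1.48 CPM across AAV-Null and 0.670, 0.168, 0.608 and 0.624 CPM in AAV-H19. A count of 0 allows up to 12 units, which are 3 read pairs if a pair stands for 4 units, or 0.138 CPM for AAV-Null 21 and 0.170 CPM for liver 22. AAV-Null livers thus lay on both sides of the AAV-H19 range. The log2 fold change of -0.29 ± 1.28 (SE, n = 4 each, edgeR adjusted p = 0.904) had no stable sign: leaving out a library gave -0.71 to 0.57, and limma-voom gave 2.31 (adjusted p = 0.341). The spread between AAV-Null livers, from 0 to 118 units, was wider than the counting limit of 12 units and than the difference between the groups.

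**Figure D2:**
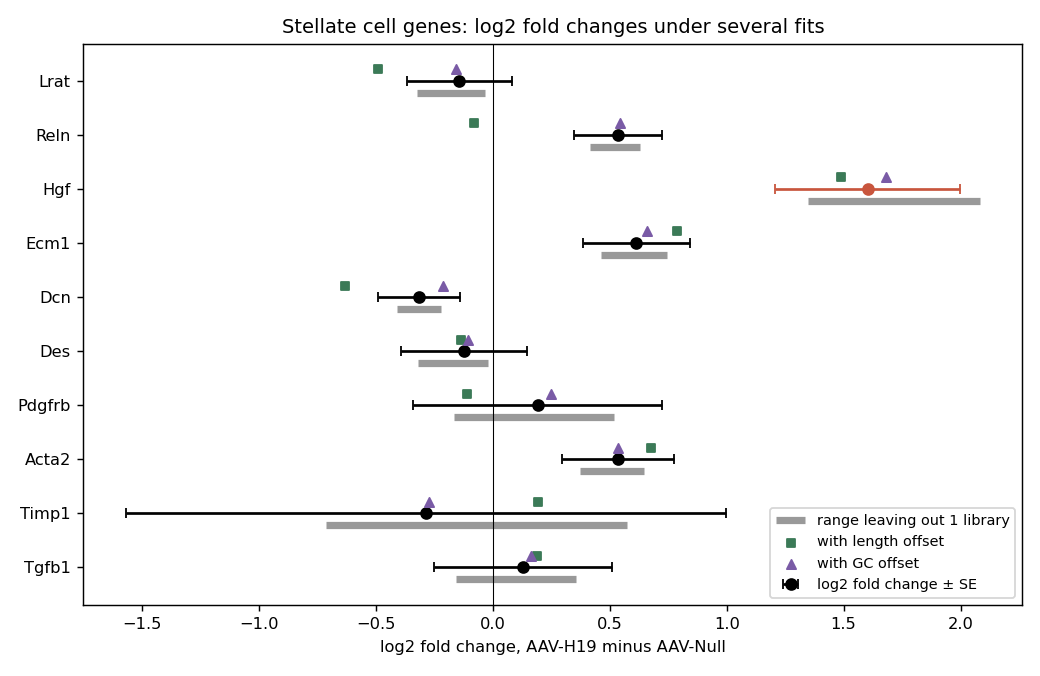
Log2 fold change (AAV-H19 minus AAV-Null, horizontal axis) of the 10 stellate cell genes with its SE as bars, the range over the fits that each left out a library (grey), and the values with a length offset (squares) or a GC offset (triangles); red marks the gene with an edgeR adjusted p under 0.05. Hgf stays between 1.35 and 2.08 when a library is left out, the length offset takes Reln from 0.54 to -0.081, and the grey ranges of Pdgfrb, Timp1 and Tgfb1 cross 0.

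The coefficient of variation of CPM was lower in AAV-H19 than in AAV-Null for 8 of the 10 members, and higher for Reln (20.9% against 12.5%) and Acta2 (24.9% against 15.1%). The difference was not tested, and with AAV-Null 22 left out it was lower for 5 of the 10. In AAV-H19 it ran from 6.09% for Dcn to 45.3% for Timp1, and in AAV-Null from 12.5% for Reln to 119% for Timp1 (n = 4 each). Without AAV-Null 22 the AAV-Null value went from 27.9% to 9.15% for Lrat, from 29.8% to 7.19% for Des, from 63.1% to 25.9% for Pdgfrb and from 51.6% to 26.6% for Tgfb1. For Hgf it went from 62.1% to 77.8%. AAV-Null 22 stood at 0.276 of the mean of the other AAV-Null livers for Tgfb1, 0.492 for Des, 0.530 for Lrat and 0.597 for Ecm1, and at 0.954 for Reln, 0.995 for Acta2, 1.11 for Hgf and 1.23 for Dcn. The 5 members with a transcript GC content above 50% and a value above 0 were all below 1 in this ratio (median log2 ratio -1.02), as were 2 of the 4 at or below 50% (median 0.07). Among 64 other stellate and myofibroblast genes, 30 of 37 above 50% GC (median -0.88) and 20 of 27 at or below it (median -0.58) were below 1. Over all protein-coding genes tested, with 0.1 CPM added to each level, the medians were -0.36 for 6578 genes above 50% GC and 0.10 for 6960 at or below it. The part of GC content in the low values of AAV-Null 22 was not tested.

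**Figure D3:**
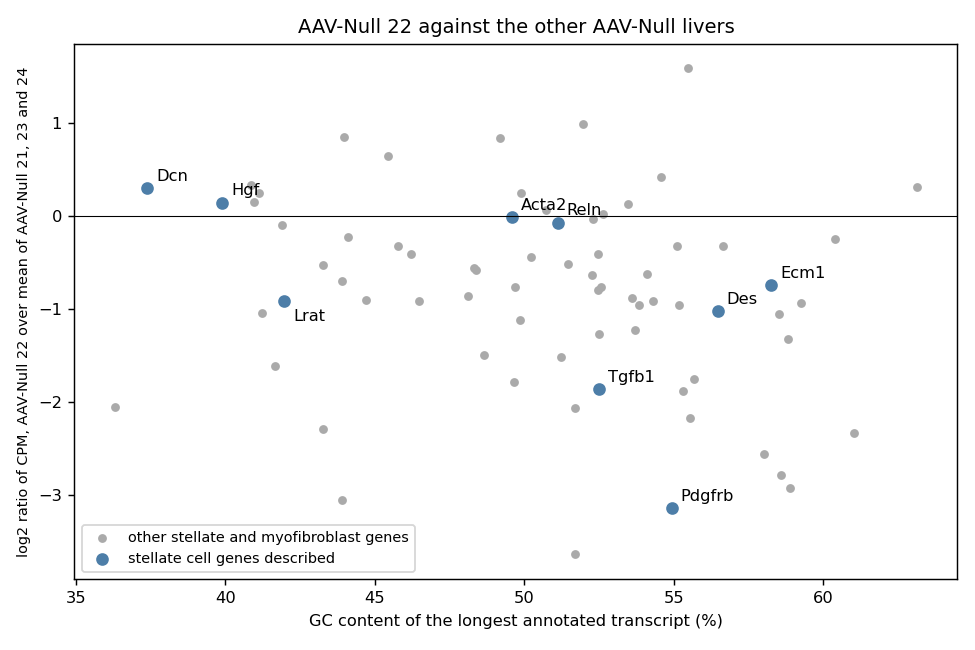
Log2 ratio of the CPM in AAV-Null 22 to the mean CPM of AAV-Null 21, 23 and 24 (vertical axis) against the GC content of the longest annotated transcript in percent (horizontal axis), for 9 of the 10 members (blue, Timp1 was at 0) and for 64 other stellate and myofibroblast genes (grey). Pdgfrb, Tgfb1, Des, Lrat and Ecm1 lie below 0, and Dcn and Hgf lie just above it.

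To compare genes with each other, levels were divided by the length of the longest annotated transcript and scaled to a common total per library (TPM, as used for transcripts). Ecm1, at 66.5 ± 22.5 TPM in AAV-Null and 108 ± 19.8 TPM for AAV-H19, and Dcn, at 67.8 ± 9.64 and 59.6 ± 1.44 TPM (SD, n = 4 each), stood far above the other members; they differed from each other by more than their SD in AAV-H19 but not in AAV-Null. Lrat was next at 8.79 ± 2.85 and 8.53 ± 1.26 TPM. Tgfb1, Hgf, Reln, Acta2, Des and Pdgfrb followed with means over all 8 livers of 5.69, 4.19, 3.76, 3.38, 3.20 and 2.54 TPM. Of the neighbours in this order, Reln and Acta2, and Des and Pdgfrb, differed by less than the larger of their SDs in both groups. Acta2 and Des, and Hgf and Reln, did so in AAV-Null only. Hgf was at 1.93 ± 1.17 TPM in AAV-Null, below the means of Lrat, Tgfb1, Reln, Acta2, Des and Pdgfrb. Its gaps there to Reln, Acta2 and Pdgfrb were smaller than the larger SD of each pair. In AAV-H19 Hgf was at 6.45 ± 0.804 TPM, within the SD of Tgfb1 at 6.08 ± 0.719 TPM. Timp1 was last at 1.11 TPM over all livers. With the length of all annotated exons in place of the longest transcript, the order after Lrat became Acta2, Tgfb1, Des, Pdgfrb, Hgf, Reln and Timp1, with means over all livers of 3.64, 3.37, 2.997, 2.91, 2.35, 2.15 and 1.28 TPM.

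Further stellate cell genes gave calls in both directions. Of 32 other stellate cell markers, all tested, 3 were higher, 4 lower and 25 did not pass, with a median log2 fold change of -0.06. Vcl, which encodes the adhesion protein vinculin and is active in many cell types, rose by 1.92 ± 0.36 on the log2 scale (SE, n = 4 each, edgeR adjusted p = 0.0188), from 2.36 to 7.85 CPM over the AAV-Null livers to 15.9 to 27.7 CPM across AAV-H19 livers. Angptl6, an angiopoietin-like secreted protein, fell by 1.16 ± 0.22 (edgeR adjusted p = 0.0188). The groups did not overlap in either gene. With the length offset 1 of the 32 was higher and 1 lower, namely Vcl and Ednrb, an endothelin receptor gene, and the edgeR adjusted p of Angptl6 was 0.0593. Gfap, a further classical marker, was at 0.0880 to 0.524 CPM, so it can be read in neither direction. The summed level of the list was 561 to 683 CPM across AAV-Null and 788 to 1095 CPM in AAV-H19, and without its most abundant pair, Steap4 and Tmem56, it was 347 to 456 and 381 to 432 CPM.

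Genes that activated stellate cells and myofibroblasts make showed 2 rises and 1 fall among 33 tested, with a median of 0.13. Fn1, which encodes fibronectin and is also strongly active in hepatocytes, which secrete it into plasma, was at 653 to 774 CPM across AAV-Null and 1236 to 2015 CPM in AAV-H19, a rise of 1.17 ± 0.18 on the log2 scale (SE, n = 4 each, edgeR adjusted p = 0.0106). Thbs1, the gene of thrombospondin 1, an activator of latent TGF-beta, rose by 1.54 ± 0.42 (edgeR adjusted p = 0.0448), although AAV-H19 26 at 3.63 CPM lay below AAV-Null 24 at 3.95 CPM. Crip1, a LIM-domain protein gene, fell by 0.82 ± 0.22 (edgeR adjusted p = 0.0417). The fibrillar collagen genes did not pass: Col1a1 had a log2 fold change of 0.08 ± 0.56, Col1a2 of -0.02 ± 0.38 and Col3a1 of -0.37 ± 0.27 (SE, edgeR adjusted p = 0.941, 0.977 and 0.400). Col1a1 was at 19.6, 1.85, 15.3 and 7.45 CPM in AAV-Null livers 21 to 24 and at 7.33 to 13.6 CPM in AAV-H19, so AAV-Null 22 was the low liver here as for Pdgfrb. No gene of this list passed with the length offset, and the median was -0.050. Without AAV-Null 22 the median was -0.17. The summed level of the list was 1051 to 1291 CPM across AAV-Null and 1745 to 2592 CPM in AAV-H19. Without Fn1 the sum was 276 to 594 CPM across AAV-Null and 454 to 577 CPM in AAV-H19.

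The pathways around the members were read from fixed lists. In retinoid handling 1 gene was higher and 2 were lower of 28. Rbp4, the hepatocyte protein that carries retinol in plasma, fell by 0.94 ± 0.27 on the log2 scale (edgeR adjusted p = 0.0485), and Lrp1, a receptor that takes up chylomicron remnants with their retinyl esters, rose by 0.93 ± 0.26 (edgeR adjusted p = 0.0488). In the reelin pathway 1 of 13 was higher, the adaptor gene Crkl at 0.79 ± 0.20 (edgeR adjusted p = 0.0340). The reelin receptor gene Vldlr had a log2 fold change of -0.12 ± 0.34 (edgeR adjusted p = 0.837). In the HGF pathway 2 of 19 were higher, Hgf itself and Ptpn11, the gene of the phosphatase SHP2, at 0.76 ± 0.19 (edgeR adjusted p = 0.0336). The receptor gene Met was at 48.0, 79.5, 6.97 and 6.39 CPM in AAV-Null livers 21 to 24 and 24.1 to 32.6 CPM in AAV-H19, with no call (-0.31 ± 0.70, edgeR adjusted p = 0.801). Its AAV-Null livers lay on either side of all AAV-H19 livers. No gene of these 3 lists passed with the length offset.

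In the PDGF pathway 3 of 15 were higher, Ptpn11, Lrp1 and Pik3r1, the regulatory subunit gene of PI3 kinase, which rose by 1.23 ± 0.31 on the log2 scale (SE, n = 4 each, edgeR adjusted p = 0.0371). The length offset left none of these 15 past the threshold, at 0.27 for Ptpn11, 0.36 for Lrp1 and 0.70 for Pik3r1, and without AAV-Null 22 1 of the 15 passed. Among TGF-beta ligands and the genes that hold or release them, 3 of 25 were higher, none was lower, and the median was 0.47, or 0.24 with the length offset and 0.34 without AAV-Null 22. Itgav, the gene of the integrin alpha V subunit, whose heterodimers release active TGF-beta from its latent complex, was at 1.41 to 4.06 CPM across AAV-Null and 8.27 to 24.9 CPM in AAV-H19 and rose by 3.08 ± 0.44 (edgeR adjusted p = 0.00758). Furin, the protease gene whose product cleaves the TGF-beta precursor, rose by 1.27 ± 0.24 (edgeR adjusted p = 0.0192). Both genes also passed with the length offset, at 2.55 and 0.90. Of 20 receptor and SMAD genes, Tgfbr2 and Tgfbr3 rose by 1.07 ± 0.26 and 0.75 ± 0.17 (edgeR adjusted p = 0.0329 and 0.0301), and none fell. Neither passed with the length offset, at 0.54 and 0.29 (edgeR adjusted p = 0.225 and 0.421). Of 21 TGF-beta target genes only Fn1 and Thbs1 passed, both upward, and Smad7, an inhibitory SMAD and early target, had a log2 fold change of 0.16 ± 0.20 (edgeR adjusted p = 0.647). Neither Fn1 nor Thbs1 passed when the length offset was used.

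Around Timp1, 3 of 22 inhibitor and metalloproteinase genes were higher and 1 lower. Adam10, a membrane sheddase gene, was at 2.39 to 4.44 CPM across AAV-Null and 16.03 to 21.5 CPM in AAV-H19, a rise of 2.41 ± 0.23 on the log2 scale (SE, n = 4 each, edgeR adjusted p = 0.00141). Reck, a membrane inhibitor of metalloproteinases, rose by 0.83 ± 0.21, and Adamts1, a secreted protease, by 1.25 ± 0.33 (edgeR adjusted p = 0.0355 and 0.0395), while Cd82, a tetraspanin gene, fell by 0.50 ± 0.14 (edgeR adjusted p = 0.0464). Adam10 alone of these also passed with the length offset, at 2.14. Around Dcn, none of 11 small leucine-rich proteoglycan genes passed, with a median of 0.035, or -0.056 with the length offset. Around Acta2, 2 of 22 actin and contractile genes were higher and 1 lower, with a median of 0.52: Vcl, the non-muscle myosin gene Myh10 at 1.49 ± 0.39 and the myosin light chain gene Myl6 at -0.74 ± 0.21 (edgeR adjusted p = 0.0397 and 0.0476 for the last pair). Of these 3, Vcl alone passed with the length offset, at 1.58. Around Des, none of 11 intermediate filament genes passed, with a median of 0.065. In this list and that of the proteoglycans 0 genes had an unadjusted p under 0.05, and DESeq2 and limma-voom called 0. Of 30 mitogens and regulators of activation, Yap1 and Ptch1 rose by 0.63 ± 0.16 and 0.79 ± 0.22, and Ednrb fell by 0.87 ± 0.24 (edgeR adjusted p = 0.0362, 0.0470 and 0.0450). The length offset left 2 of the 30 lower, Ednrb at -1.06 among them, and Yap1 and Ptch1 did not pass, at 0.28 and 0.24.

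**Figure D4:**
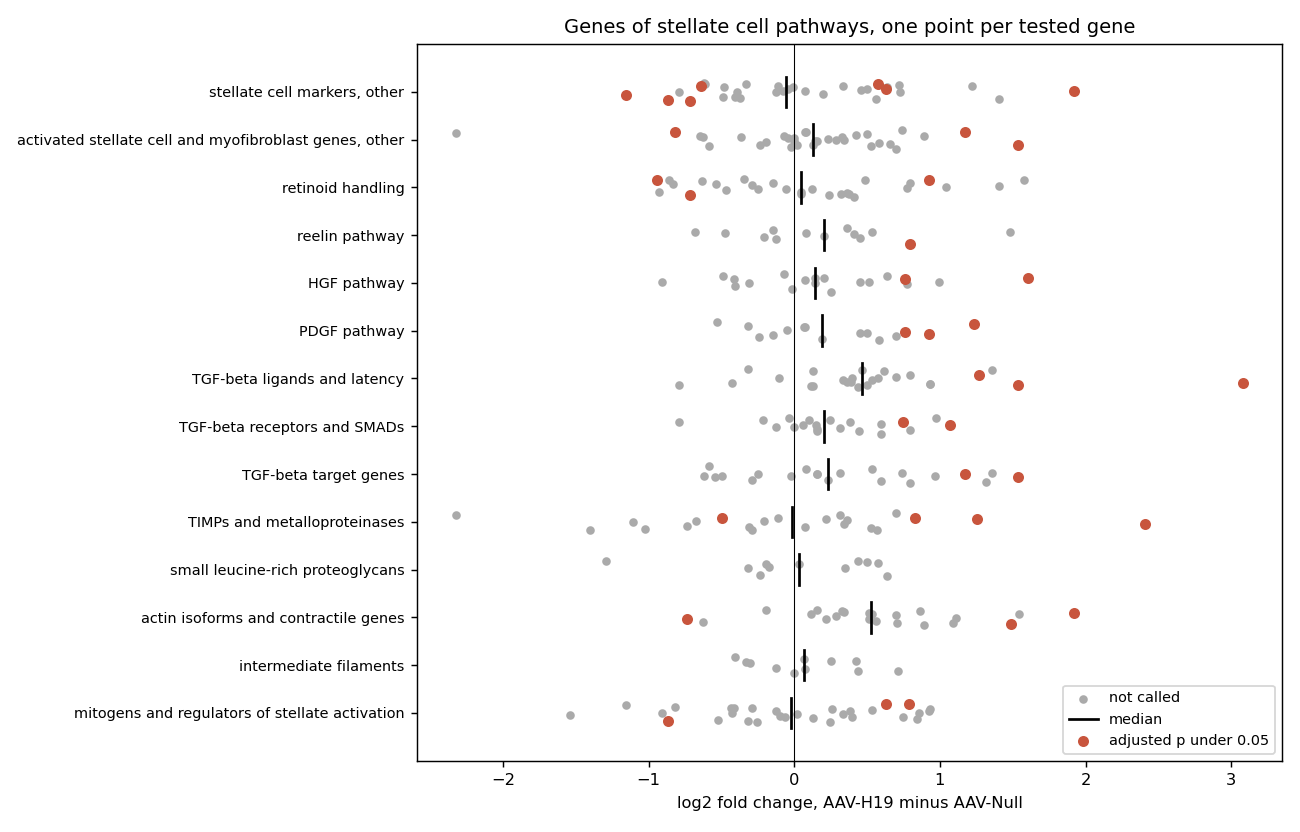
Log2 fold change (AAV-H19 minus AAV-Null, horizontal axis) of each tested gene of 14 lists of stellate cell markers and pathways, with the median of each list as a black line and genes with an edgeR adjusted p under 0.05 in red. The highest medians are 0.52 for actin and contractile genes and 0.47 for TGF-beta ligands and latency (0.63 and 0.24 with the length offset), and the highest red point is Itgav at 3.08.

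Across these lists and those of other cell types, 338 distinct genes besides the members were tested, of which 24 were higher and 21 lower. These are 7.10% and 6.21%, beside 5.60% and 6.07% of all tested genes. Leaving out AAV-H19 25, 26, 27 or 28 brought the higher genes to 4, 6, 2 or 7 and the lower ones to 1, 2, 0 or 4. In the same fits all tested genes went from 934 higher to 128, 206, 86 or 373. Those lower went from 1012 to 53, 98, 27 or 325. Leaving out AAV-Null 21 or 24 brought the lower genes of the lists to 12 or 9, and those of all tested genes to 1049 or 498. Without AAV-Null 22 no list count moved by more than 2 genes in a direction. The naming rule gave 35 of these genes, of which 7 passed with the length offset. Itgav and Adam10 kept their call in all 8 fits without a library and in the fit with the length offset, and no other named gene kept it in all 8.

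Markers of other cells that share these genes were measured alongside. Of 10 tested markers of vascular smooth muscle and pericytes, Kcnj8, a potassium channel gene, fell by 0.99 ± 0.24 on the log2 scale (edgeR adjusted p = 0.0326) and none rose; Myh11, the smooth muscle myosin gene, was at 0.566 to 3.10 CPM across AAV-Null and 4.24 to 7.99 CPM in AAV-H19 with a log2 fold change of 1.54 ± 0.49 (edgeR adjusted p = 0.0674). Their summed level was 20.3 to 29.0 CPM across AAV-Null and 22.4 to 40.0 CPM in AAV-H19, highest in AAV-H19 25, the liver that was also highest for Acta2. None of 13 portal fibroblast markers, which summed to 59.0 to 110 CPM across AAV-Null and to 85.0 to 118 CPM in AAV-H19, passed the edgeR test. Nor did any of 6 mesothelial markers, at 3.21 to 5.67 and 2.99 to 7.73 CPM. In both lists 0 genes had an unadjusted p under 0.05, and DESeq2 and limma-voom called 0. No gene of these 3 lists was at 0 in all libraries, although 8 of them were too low to be tested. Their part in the values of Acta2, Dcn, Des and Pdgfrb was not tested.

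Of 16 markers of sinusoidal endothelium, Cdh5 rose by 0.99 ± 0.28 and Clec4g fell by 0.57 ± 0.14 on the log2 scale (edgeR adjusted p = 0.0494 and 0.0355), and their summed level was 308 to 541 CPM across AAV-Null and 424 to 536 CPM in AAV-H19. Of 19 Kupffer cell and macrophage markers 9 fell and none rose, where 6.07% of all tested genes were lower. With the length offset 2 of the 19 were lower, Lyz2 and Clec4f, where 134 of all 16672 tested genes were lower. The summed level of the 19 markers was 602 to 712 CPM across AAV-Null and 328 to 452 CPM in AAV-H19, with no overlap. These cells are further sources of Tgfb1, and endothelium of Hgf, and their part in those values was not tested. Lyz2, C1qa and Clec4f led the falls, by 1.49 ± 0.25, 1.08 ± 0.19 and 0.93 ± 0.18 (edgeR adjusted p = 0.0129, 0.0146 and 0.0213). Of 15 hepatocyte markers Cps1 and Hnf4a rose by 1.38 ± 0.22 and 0.85 ± 0.18 (edgeR adjusted p = 0.0102 and 0.0243), and the summed level was 101595 to 147960 CPM across AAV-Null and 153990 to 166850 CPM in AAV-H19; hepatocytes also make Ecm1 and Fn1, and their part in those values was not tested. Of 11 cholangiocyte markers 2 were higher and 1 lower, led by Krt23, which fell by 2.25 ± 0.48 (edgeR adjusted p = 0.0246). Of 10 lymphocyte markers Trbc2 fell by 1.86 ± 0.53 (edgeR adjusted p = 0.0483), and none of 3 platelet markers passed the edgeR test (1 had an unadjusted p under 0.05, and DESeq2 called 1 lower and limma-voom 0). No gene passed with the length offset in the lists of smooth muscle, endothelium, hepatocytes, cholangiocytes or lymphocytes.

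**Figure D5:**
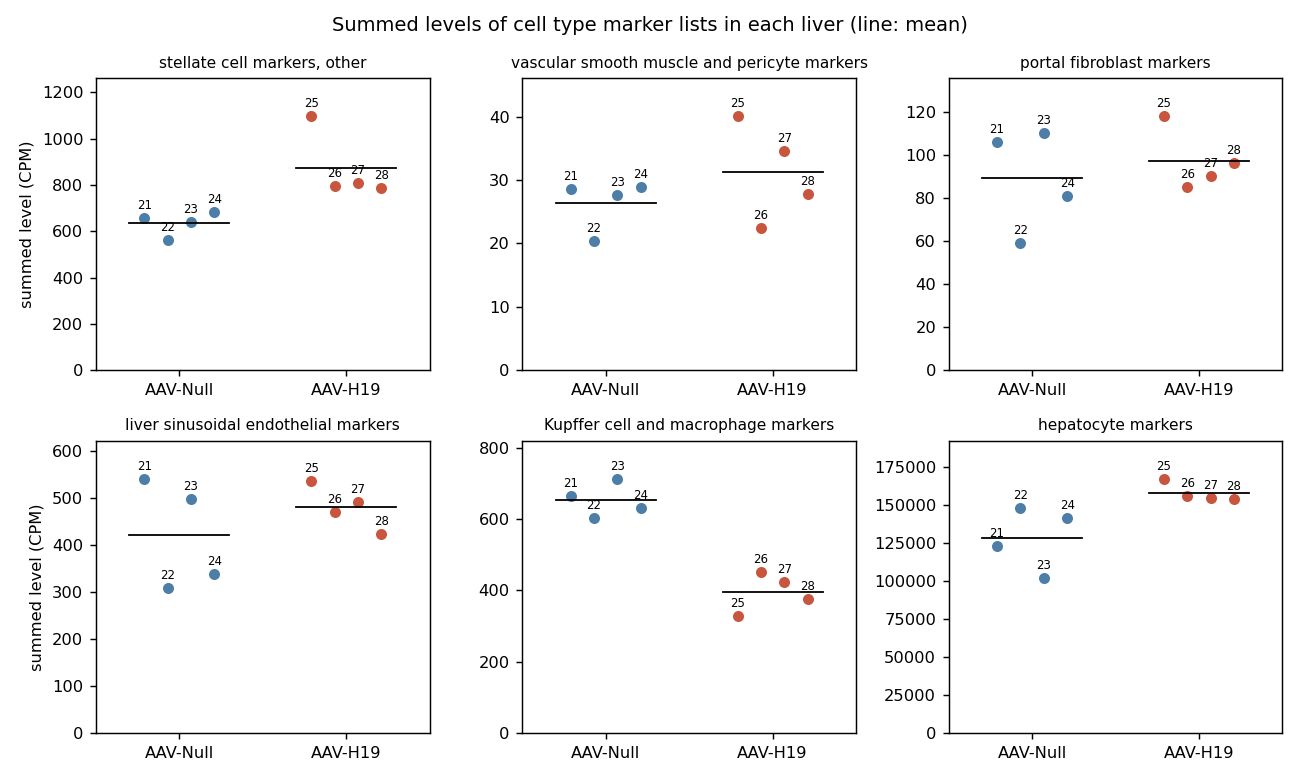
Summed level in TMM-scaled CPM (vertical axes from 0) of 6 marker lists in each AAV-Null liver (21 to 24) and AAV-H19 liver (25 to 28), with the mean as a line. The Kupffer cell sum is lower in all AAV-H19 livers (328 to 452 CPM) than in all AAV-Null livers (602 to 712 CPM). The stellate sum (788 to 1095 against 561 to 683 CPM) and the hepatocyte sum are higher in all AAV-H19 livers than in all AAV-Null livers. Without Steap4 and Tmem56 the stellate sums overlap. The smooth muscle, portal fibroblast and endothelial sums overlap.

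By the distance between standardized log2 CPM profiles over the 8 libraries, the genes most like Lrat among 16671 others were Pmm2 at 0.622, Kif22 at 0.749 and Cdc20 at 0.783. For Acta2 they were Bud13 at 0.731, Gk5 at 0.888 and Heatr1 at 0.979. For Timp1 they were Rab12 at 0.532, Myef2 at 0.628 and Slc41a3 at 0.633. None of these 9 genes passed the test between the groups, and no gene of the stellate cell lists is among them. No reference distance for unrelated genes was computed, so nearness over 8 libraries among 16671 genes does not show shared control.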

How the data were processed

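RNA was extracted from 8 livers with Direct-zol kits, and stranded poly(A) libraries were made with a TruSeq kit, per the labels' protocols. HISAT and StringTie are named in the submitters' processing notes; nothing on their versions, the build, the annotation or the counting step is given in the sources used here. The authors deposited estimated counts per gene, whole numbers that pile up at multiples of 4, so a unit is not a read. Symbols and GRCm38 positions came from GENCODE M21, which matched all 55450 identifiers.

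Genes of low count were removed by filterByExpr in edgeR 4.0.16 (minimum count 10, minimum total 15), and the rest were scaled by TMM and compared with the quasi-likelihood test (robust, no covariates; R 4.3.3) and Benjamini-Hochberg adjustment over 16672 genes; the filter removed 0.0454% of counts. The procedure was tested on simulated data. Alternatives used DESeq2 1.42.0, limma-voom (limma 3.58.1), other scalings and filters, length and GC offsets, values divided by 4, overlapping genes summed, an adjusted p of 0.1 and each library left out in turn. The depth behind each value is limited by totals of 63.7 M to 82.99 M units, and limits for a count of 0 cover counting error only. No 2 libraries were identical, and the lowest chi-square per degree of freedom between libraries was 27.8.

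The members and the 23 other lists were chosen with earlier results of these data known. Named genes are all members, up to 3 genes per list with the smallest p among those that passed, and the 3 nearest profiles of Lrat, Acta2 and Timp1. Steap4, Tmem56, the collagens, Met, Vldlr, Smad7, Myh11, Gfap, Ednrb and Cd82 are named because a sentence turns on their level, and the sums without Steap4, Tmem56 or Fn1 were chosen after their values were seen. RefSeq promoter entries matched 8 of 10 members (9 windows; 4 held a match); Dcn and Pdgfrb are not shown. A gene that the naming rule gives is not reported here.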

Additional observations from a re-analysis of the deposited data

Results flagged for a closer look

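In 20 groups of 4 livers, 1 value lay far from the others: Timp1 in AAV-H19 26 was at 0.168 CPM, and the other 3 AAV-H19 livers were at 0.608 to 0.670 CPM. Its gap was 0.877 of the range of the group, above Dixon's 95% critical value for 4 samples. Chance gives such a value in about 1 of 20 groups.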

How the results depend on the processing

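No paired analysis was possible because the groups share no replicate numbers. For the 10 genes, DESeq2, limma-voom, other scalings, no filter, values divided by 4 and summed overlapping genes left 1 higher and 0 lower; the length offset gave 0 higher, the GC offset and a threshold of 0.1 gave 2 higher (with Ecm1 at 0.66 and with Reln), and leaving out a library gave 0 to 1. With the length offset Hgf was at 1.49, below the threshold, and Reln, Pdgfrb and Timp1 changed sign (-0.081, -0.11 and 0.19); limma-voom put Timp1 at 2.31. Leaving out a library gave 1.35 to 2.08 for Hgf, -0.17 to 0.52 for Pdgfrb, -0.16 to 0.36 for Tgfb1 and -0.71 to 0.57 for Timp1. The cause was not tested. For Timp1 the counting limit of 12 units is small beside the 0 to 118 units of the AAV-Null livers. A filter of 1 CPM in 4 samples removed Timp1. Over all genes, the 934 higher became 1640 with DESeq2, 1694 at a threshold of 0.1, 235 with the length offset and 86 to 1023 without a library. The 1012 lower became 1557 with upper-quartile scaling, 2013, 1885, 134 and 27 to 1050, respectively for the last 4. Upper-quartile scaling moved the median of all genes from -0.02 to -0.13. For other list genes, 24 higher became 42 with DESeq2, 4 with the length offset and 2 to 27 without a library, and 21 lower became 39, 4 and 0 to 24, and 13 with no filter.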
